A study of Mus musculus with 14 samples.

Results

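The genes described here are 10 of the 50508 gene rows in each count table of the study: 7 inhibitory receptors (Pdcd1, Ctla4, Lag3, Tigit, Havcr2, Btla and Cd160), the ectoenzyme gene Entpd1 (CD39), and the transcription factor genes Tox and Tox2. They were chosen by name, as genes widely used to describe restrained or exhausted T cells, with earlier results of these data known. All 10 were present in both tables. After a filter on low counts, 9 were tested in the thymic table, with Havcr2 left out, and 10 in the tumour table.

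The study was concerned with ILTCk, innate-like αβ T cells of killer type, in mouse tumours, and with their thymic progenitors (ILTCkP). Bulk RNA sequencing covered 5 groups, with 2 libraries in each. The thymic groups were ILTCkP and CD8SP, the single-positive CD8 thymocytes, both from C57BL/6 mice. The tumour groups were NK1.1+ ILTCk, their NK1.1- counterpart (NK1.1- ILTCk) and conventional PD-1-bearing T cells (PD1+ Tconv). These mice are labelled retrogenic, a model in which transplanted blood stem cells carry an introduced T cell receptor. The sources used here do not give the receptor introduced, the age of the mice or the number of mice behind a library. Both gated tumour groups were CD45+, TCRγδ-negative, TCRβ+, CD4-negative and CD8α+ cells. NK1.1+ ILTCk were in addition PD-1-negative and NK1.1+, and PD1+ Tconv were PD-1+ and NK1.1-negative. For NK1.1- ILTCk the labels give no gate or tissue, and the cell type entry of both tumour ILTCk groups reads ILTCkP, so the titles were followed. The thymic gate began with CD4-negative or dull, CD8α-negative or dull cells that did not bind the CD1d tetramer. Its text breaks off after CD25, and the use of PD-1 in it is therefore unknown here. Pdcd1, the gene of PD-1, is therefore a check of the sort in the tumour groups, not a finding. No label says that the 2 libraries of a group came from separate mice, so p-values measure the spread between these libraries, which may be technical.

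Inhibitory receptors are surface proteins that lower T cell activation when they meet their ligands. PD-1 binds PD-L1 and PD-L2 and recruits the phosphatase SHP-2. CTLA-4 competes with CD28 for CD80 and CD86, LAG-3 binds MHC class II, TIGIT competes with CD226 for CD155, and BTLA and CD160 both bind HVEM. TIM-3, encoded by Havcr2, has galectin-9 among its ligands. CD39 begins the conversion of extracellular ATP to adenosine, which CD73 completes. TOX is a DNA-binding protein needed for the exhausted state of CD8 T cells under lasting antigen exposure, and also for the development of T cells in the thymus. TOX2 is a related factor. T cells that meet self-antigen strongly in the thymus are known to carry PD-1 as they are selected.

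In GRCm38 coordinates with GENCODE release M21 annotation, Pdcd1 lies at chr1:94038305-94052553 (minus strand), Ctla4 at chr1:60887000-60915832 (plus) and Lag3 at chr6:124904361-124911705 (minus). Tigit lies at chr16:43648867-43664146 (minus), Havcr2 at chr11:46454935-46481255 (plus) and Btla at chr16:45224315-45257670 (plus). Cd160 lies at chr3:96798763-96829351 (minus), Entpd1 at chr19:40612366-40741602 (plus), Tox at chr4:6686353-6991557 (minus) and Tox2 at chr2:163203125-163324170 (plus). Exon bases shared with another gene were found for Cd160, which shares 68 with Pdzk1 on the opposite strand, and for Tox, which shares 260 with the antisense gene Gm11802. The labels do not say whether reads were counted by strand, so reads of those bases cannot be assigned with certainty.

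RefSeq promoter entries (GRCm38.p6) were found for 8 of the 10 genes, in 14 entries of 250 bases before a transcription start, and not for Lag3 and Tox. The 4 shown belong to members that were higher in ILTCkP than in CD8SP. Each is given 5′ to 3′ on the gene's strand, and capitals mark motif matches on either strand.
Pdcd1, chr1:94052554-94052803, minus strand: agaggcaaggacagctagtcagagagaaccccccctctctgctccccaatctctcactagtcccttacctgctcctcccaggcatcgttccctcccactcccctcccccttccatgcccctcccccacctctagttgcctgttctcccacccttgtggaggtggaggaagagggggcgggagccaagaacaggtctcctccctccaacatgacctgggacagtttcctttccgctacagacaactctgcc
Tigit, chr16:43664185-43664434, minus strand: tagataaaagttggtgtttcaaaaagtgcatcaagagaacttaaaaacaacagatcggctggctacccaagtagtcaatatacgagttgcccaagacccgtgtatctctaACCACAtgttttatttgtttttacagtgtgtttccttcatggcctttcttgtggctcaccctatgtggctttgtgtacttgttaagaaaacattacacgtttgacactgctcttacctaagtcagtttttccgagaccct
Cd160, chr3:96829352-96829601, minus strand: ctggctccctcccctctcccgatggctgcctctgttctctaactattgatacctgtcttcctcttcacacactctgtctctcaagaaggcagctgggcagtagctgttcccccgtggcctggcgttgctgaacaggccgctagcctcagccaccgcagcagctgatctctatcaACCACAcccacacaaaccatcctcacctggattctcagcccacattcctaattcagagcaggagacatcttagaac
Entpd1, chr19:40612116-40612365, plus strand: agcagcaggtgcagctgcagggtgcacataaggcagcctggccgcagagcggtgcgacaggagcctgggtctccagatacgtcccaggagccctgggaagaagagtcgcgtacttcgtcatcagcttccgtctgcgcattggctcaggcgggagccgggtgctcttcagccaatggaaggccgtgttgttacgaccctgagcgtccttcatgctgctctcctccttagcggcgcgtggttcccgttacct
The motifs searched were TGGAAA (NFAT), TGANTCA (AP-1), AAAGGTCA (the NR4A half-site NBRE), CTTTGA (TCF) and TGTGGT (RUNX), on both strands, and none of these words contains another. The Tigit and Cd160 windows each held 1 RUNX match, and the Pdcd1 and Entpd1 windows held none of the 5 motifs. Over the 14 entries the RUNX motif occurred in 5, against 14% of all 32851 promoters. TCF occurred in 3 of 14 (13.8% of all promoters), NFAT in 1 (18.6%), AP-1 in 1 (6.75%) and NBRE in 0 (1.34%). The entries of one gene overlap in part, and a match is a description of letters, not of binding.

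Libraries held 16530085 to 32097301 counts. Levels are CPM, a gene's counts relative to its library's total, scaled by TMM (trimmed mean of M values) within each table, so that levels of the 2 tables were not tested against each other. The summed CPM of Cd3d, Cd3e and Cd3g, subunits of the T cell receptor complex, was 2641 to 3736 in the 4 thymic libraries and 348 to 2458 in the 6 tumour libraries, lowest in NK1.1+ ILTCk library 2. The 12 macrophage and monocyte markers summed to 18.8 to 29.6 CPM in the thymic libraries, with Mrc1 at 0 counts in all 4. In the tumour libraries none of the 12 was at 0. They summed to 157 and 1041 CPM in PD1+ Tconv, while NK1.1- ILTCk had 3052 and 3008 and NK1.1+ ILTCk had 6512 and 18624. The 7 epithelial and gland markers summed to 262161 CPM in PD1+ Tconv library 2 and 37364 in NK1.1- ILTCk library 1, mainly through the salivary gland gene Bpifa2, and to 1866 to 3453 in the other 4 tumour libraries. Klrb1c, which encodes NK1.1, was highest in NK1.1+ ILTCk, at 309 and 68.5 CPM, against 39.5 and 2.35 CPM in PD1+ Tconv and 29.9 and 12.4 CPM in NK1.1- ILTCk. These libraries thus stand apart from the thymic ones in their content, and in bulk RNA fewer cells of a type and less RNA per cell cannot be told apart.

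**Figure D1:**
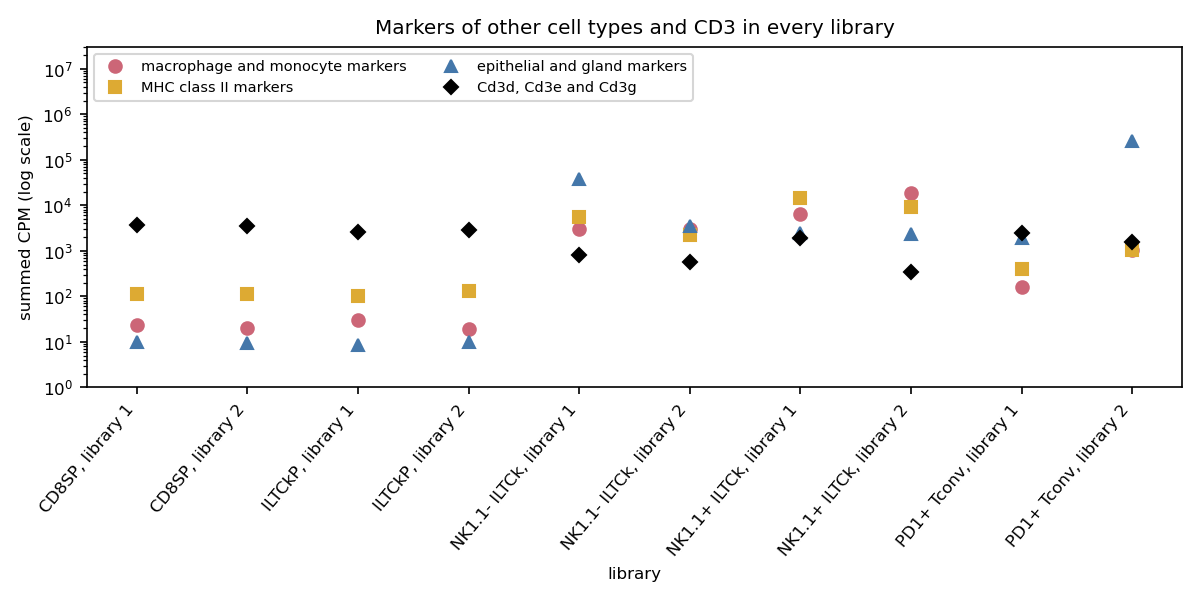
Summed CPM (log scale) of macrophage and monocyte, MHC class II, and epithelial and gland markers and of Cd3d, Cd3e and Cd3g in each of the 10 libraries (x axis), 1 symbol per library and list. The macrophage sum lies between 18.8 and 29.6 in the thymic libraries and between 157 and 18624 in the tumour libraries.

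In the thymus, 5 of the 9 tested members rose in ILTCkP over CD8SP by edgeR's quasi-likelihood test (adjusted p under 0.05, adjusted over 14634 genes), against 3.38% of all genes called higher. They were Pdcd1, Lag3, Tigit, Cd160 and Entpd1, or 4 of 8 with Pdcd1 left aside. No member was called lower, against 1.33% of all genes, and 1, Btla, had an unadjusted p under 0.05 in that direction (9.06% of all genes). The median log2 fold change of the 9 was 2.84, against 0.01 over all genes. DESeq2 called 7 members higher (8.82% of its genes) and 1 lower (4.82%). The libraries of the 2 groups did not overlap for the same 7 in the higher direction (28.8% of all genes) and for Ctla4 and Btla in the lower direction (29.3%).

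Among the receptors, Lag3 had the largest difference. It held 2 counts in each CD8SP library (0.07 and 0.06 CPM) and 316 and 470 counts in the ILTCkP libraries (12.4 and 14.4 CPM). CD8SP was thus at the limit of detection and ILTCkP was not. The ratio of summed counts was 205 (95% exact binomial interval 79.9 to 756, which covers counting error only), and the fitted log2 fold change was 7.58 ± 0.57 (SE, adjusted p = 0.0052).

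Pdcd1 was at 24.3 and 26.9 CPM in CD8SP and at 1324 and 1268 CPM in ILTCkP. The fitted log2 fold change was 5.66 ± 0.24 (adjusted p = 0.0020), a 50.6-fold difference. In the ILTCkP libraries Pdcd1 ranked at the 99.6th and 99.7th percentile of detected genes by counts. Because the thymic gate is known only in part, this value may rest on the sort.

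Tigit was at 3.82 and 2.06 CPM in CD8SP and 61.6 and 68.8 CPM in ILTCkP. The log2 fold change was 4.47 ± 0.43 (adjusted p = 0.0083). Cd160, a receptor anchored in the membrane by a lipid, was already well detected in CD8SP, at 73.6 and 73.7 CPM, and reached 416 and 592 CPM in ILTCkP. Its log2 fold change was 2.78 ± 0.26 (adjusted p = 0.0079). Both ILTCkP libraries lay above both CD8SP libraries for each of these receptors.

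The remaining receptors did not share this pattern. Btla was at 49.5 and 56.4 CPM in CD8SP and 8.35 and 22.0 CPM in ILTCkP. The groups did not overlap, but the log2 fold change of -1.80 ± 0.50 was not called by edgeR (adjusted p = 0.110), while DESeq2 called it (adjusted p = 0.0025). Ctla4 was low in both groups, at 7.03 and 2.78 CPM in CD8SP and 2.60 and 1.87 CPM in ILTCkP (-1.13 ± 0.62, adjusted p = 0.339). Havcr2 held 0 and 10 counts in CD8SP and 1 and 13 counts in ILTCkP. The 0 counts of CD8SP library 1 allow up to 3 counts, or 0.103 CPM. The ratio of ILTCkP to CD8SP was 1.46 (95% interval 0.604 to 3.68), so a difference in Havcr2 was not detectable at this depth.

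Entpd1 was at 2.27 and 1.61 CPM in CD8SP and 23.2 and 28.4 CPM in ILTCkP. Both ILTCkP libraries were higher, with a log2 fold change of 3.73 ± 0.40 (adjusted p = 0.0102).

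The TOX factors were higher in both ILTCkP libraries without being called. Tox was abundant in both groups, at 149 and 157 CPM in CD8SP and 340 and 292 CPM in ILTCkP, a log2 fold change of 1.05 ± 0.21 (adjusted p = 0.0515). Tox2 was at 0.31 and 1.01 CPM in CD8SP and 4.77 and 4.81 CPM in ILTCkP, a log2 fold change of 2.84 ± 0.72 (adjusted p = 0.0929). Tox was called by DESeq2 (adjusted p = 0.0027), by limma-voom (0.0432) and with CD3 scaling (0.0327), and Tox2 by DESeq2 only among these (0.0057). CD3 scaling moved the median of all thymic genes from 0.01 to 0.39 and the genes called from 495 higher and 194 lower to 808 and 134. Relative to that median, 7 of the 9 members were higher and 2 lower. Setting values against the median takes most of the change in scaling out again, so these counts do not test it.

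The other cell type lists differed between the thymic groups as well. Cd8a and Cd8b1 together stood at 4456 to 5155 CPM in CD8SP and 21.7 to 45.8 CPM in ILTCkP. The 5 γδ T cell markers summed to 17.3 to 20.9 CPM in CD8SP and 225 to 393 CPM in ILTCkP. They summed to 1072 and 542 CPM in PD1+ Tconv, gated TCRγδ-negative, of which Tcrg-C2 made up 752 and 380 CPM. Trdc was at 16.2 and 14.3 CPM in CD8SP, 55.2 and 36.3 CPM in ILTCkP and 29.1 and 19.3 CPM in PD1+ Tconv. The 6 regulatory and helper CD4 T cell markers summed to 31.9 to 40.9 and 85.8 to 124 CPM, with 3 called higher (3.38% of all genes). Foxp3 was at 7.3 and 2.8 CPM in CD8SP against 43.6 and 30.8 CPM in ILTCkP. In the same order, Zbtb7b was at 0.138 and 0.0316 against 23.7 and 9.28 CPM. Cd40lg was at 1.998 and 1.96 against 12.6 and 8.698 CPM, and Cd4 at 14.05 and 5.03 against 24.97 and 17.89 CPM. The groups did not overlap for any of these genes. Il2ra (1.96 and 1.20 against 1.14 and 1.68 CPM) and Ikzf4 (15.5 and 20.9 against 18.2 and 17.5 CPM) overlapped. The part of other cells in the members' levels was not tested. Leaving out any library leaves 1 library in its group, so calls from those fits are not read here. The fitted values of the 5 called members moved by less than 1.5-fold when any 1 of the 4 libraries was left out.

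**Figure D2:**
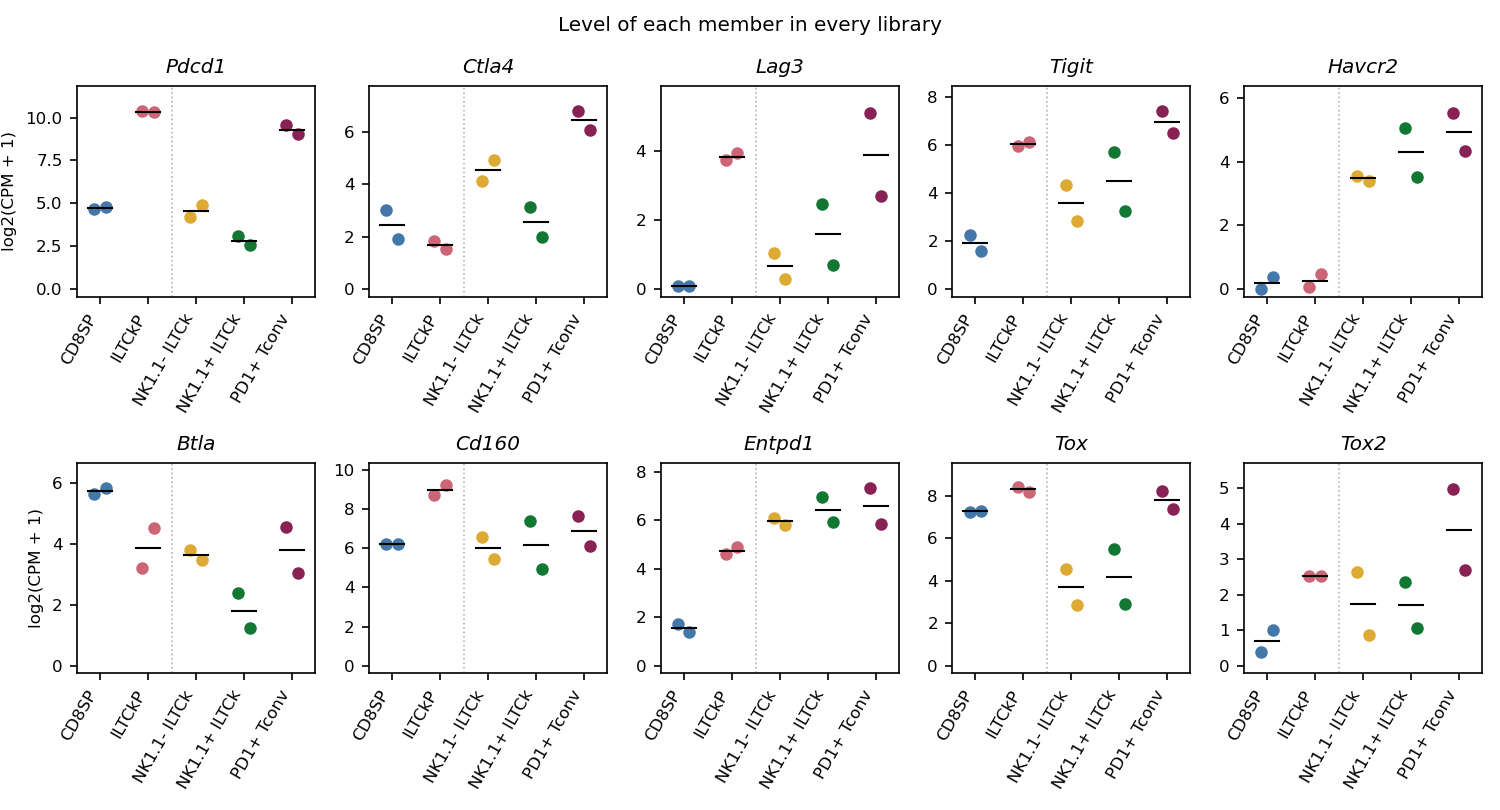
Level of each member as log2(CPM + 1) (y axis) in the 5 groups (x axis), 1 point per library with library 1 on the left, and a bar for the mean of the 2 log values. The dotted line separates the thymic from the tumour table, which were scaled apart. In ILTCkP, Pdcd1 is at 1324 and 1268 CPM and Lag3 at 12.4 and 14.4 CPM, and Havcr2 is near 0 in all 4 thymic libraries.

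Genes that act with the members were read from 7 lists, whose counts of calls stand against 3.38% of all genes called higher and 1.33% called lower by edgeR. Of the 7 genes of the adenosine pathway, in which Entpd1 works, 6 were tested and 3 rose in ILTCkP, with none called lower and a list median of 1.99. Nt5e, which encodes CD73, was at 18.8 and 15.2 CPM in CD8SP and 149 and 186 CPM in ILTCkP (3.30 ± 0.27, adjusted p = 0.0063). Adora2a, an adenosine receptor gene, was at 11.6 and 9.83 CPM against 191 and 147 CPM (3.98 ± 0.28, adjusted p = 0.0047). P2rx7, a receptor for extracellular ATP, was at 5.06 and 5.91 CPM against 99.1 and 96.8 CPM (4.16 ± 0.29, adjusted p = 0.0045). The enzyme that forms AMP, the enzyme that forms adenosine and an adenosine receptor were thus all higher in both ILTCkP libraries.

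Of the 13 ligand genes, which leave out MHC class II, 10 were tested, 1 rose and 1 fell, and the median was -0.53. Lgals3, whose product galectin-3 binds LAG-3, went from 6.92 and 5.25 CPM to 617 and 386 CPM (6.36 ± 0.38, adjusted p = 0.0033). Pvr, which encodes CD155, the ligand of TIGIT, went from 31.4 and 34.0 CPM to 10.6 and 10.1 CPM (-1.66 ± 0.30, adjusted p = 0.0400). The 5 receptors that share ligands with the members held 1 called gene. Cd226, the activating counterpart of Tigit, fell from 103 and 106 CPM to 4.10 and 8.88 CPM (-4.00 ± 0.45, adjusted p = 0.0114). Tigit and Cd226 therefore moved in opposite directions between the same libraries, while Cd28, the activating counterpart of Ctla4, was at 172 and 164 CPM against 215 and 194 CPM (0.28 ± 0.20, adjusted p = 0.460; named after its value was seen).

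None of the 12 phosphatases and adaptors that act below inhibitory receptors was called by edgeR. At an unadjusted p under 0.05, 6 were higher (13.0% of all genes) and 1 lower (9.06%). DESeq2 called 4 higher (8.82%) and 1 lower (4.82%), and the median was 0.72. The smallest p-values belonged to Dgka, a diacylglycerol kinase that restrains T cell receptor signals (-0.93 ± 0.20, adjusted p = 0.0602), Inpp5d, the lipid phosphatase SHIP1 (1.07 ± 0.24, adjusted p = 0.0712), and the ubiquitin ligase gene Cblb (0.83 ± 0.21, adjusted p = 0.0926). Of 12 other inhibitory receptors 10 were tested, 2 rose and 1 fell, with a median of 0.33. Cd244 (2B4) had a log2 fold change of 5.57 ± 0.68 (adjusted p = 0.0142) and Cd200r1 one of 4.26 ± 0.53 (adjusted p = 0.0151). Lair1, a collagen receptor, had one of -2.93 ± 0.49 (adjusted p = 0.0334).

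Of 18 transcription factors tied to exhausted T cells, all were tested, 6 rose (3.38% of all genes) and 1 fell (1.33%), with a median of 0.88. Tbx21 (T-bet) was at 4.24 and 3.57 CPM in CD8SP and 32.0 and 47.9 CPM in ILTCkP (3.35 ± 0.38, adjusted p = 0.0112). Nr4a2, induced by T cell receptor signals, was at 5.24 and 4.93 against 30.4 and 58.2 CPM (3.12 ± 0.43, adjusted p = 0.0191), and Id2 at 117 and 94.1 against 293 and 278 CPM (1.43 ± 0.22, adjusted p = 0.0263). Eomes, the only member of the list called lower and named after its value was seen, was at 9.27 and 6.32 against 1.26 and 1.26 CPM (-2.63 ± 0.48, adjusted p = 0.0401). Of the other TOX family genes only Tox4 passed the filter, at 202 and 192 against 215 and 226 CPM (0.16 ± 0.20, adjusted p = 0.679).

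**Figure D3:**
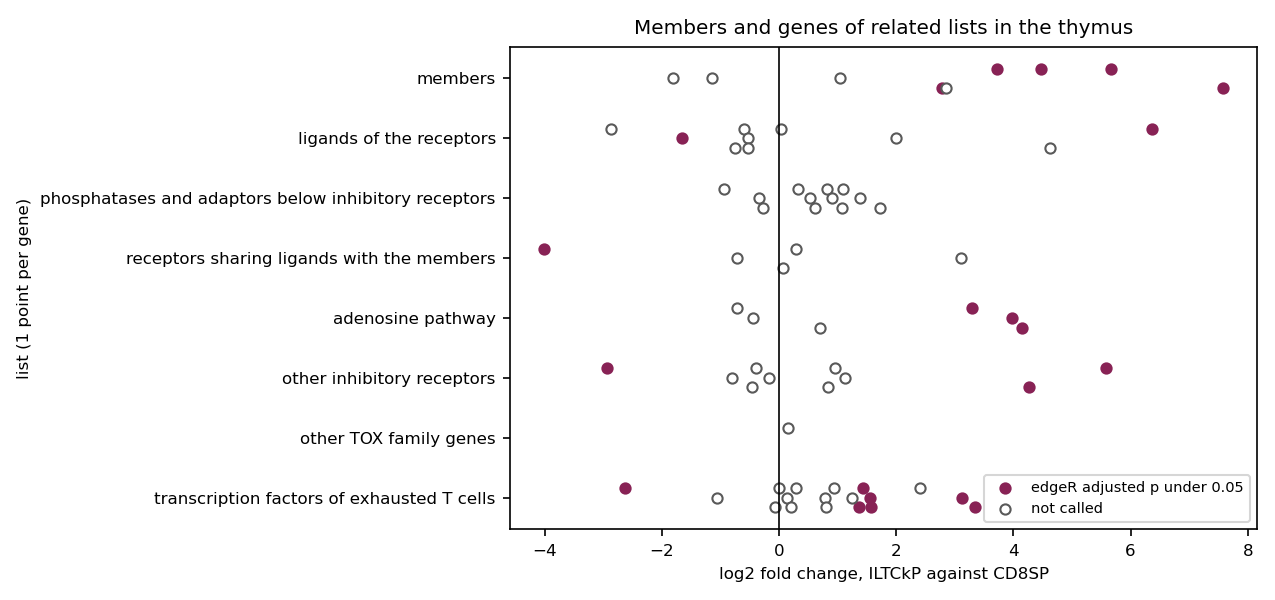
Log2 fold change of ILTCkP against CD8SP (x axis) for the 9 tested members and the tested genes of the 7 lists (y axis), 1 point per gene, filled where edgeR's adjusted p is under 0.05. Of the members 5 are filled, all to the right of 0, and of the adenosine pathway 3.

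Within each group the genes were ranked by their mean CPM per kilobase of annotated exon, which allows levels of different genes to be compared. In CD8SP the order began with Cd160 (27.8 and 27.9 CPM per kb), Tox (19.5 and 20.6), Btla (14.6 and 16.6) and Pdcd1 (12.6 and 13.9), and no 2 of these neighbours overlapped. In ILTCkP it began with Pdcd1 (686 and 657), Cd160 (158 and 224), Tigit (67.0 and 74.9) and Tox (44.7 and 38.4), again without overlap. Lag3 (5.90 and 6.82), Entpd1 (4.16 and 5.08) and Btla (2.46 and 6.47) followed, and Entpd1 and Btla overlapped. Havcr2 was last in ILTCkP, at 0.01 and 0.15 CPM per kb.

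In the tumour table, PD1+ Tconv had the highest mean of all 10 members. The main edgeR fit used TMM scaling, the filter on low counts and no replicate block. It called no member and no gene in any of the 3 comparisons. Some other settings gave calls, which are listed further below. The check of the sort held: Pdcd1 was at 752 and 518 CPM in PD1+ Tconv and at 7.41 and 5.05 CPM in the PD-1-negative NK1.1+ ILTCk, with 17.7 and 29.2 CPM in NK1.1- ILTCk. PD1+ Tconv library 2 stands apart in Bpifa2. With it left out, 10 of 10 members had a log2 fold change below 0 in both comparisons with PD1+ Tconv. Library 1 held the higher level for 10 of 10 members, so this omission raises the PD1+ Tconv level and does not test the direction. Without PD1+ Tconv library 1, Havcr2, Cd160 and Entpd1 passed to the higher side in NK1.1+ ILTCk, and Btla and Entpd1 in NK1.1- ILTCk. The comparisons of both ILTCk groups with PD1+ Tconv share the same PD1+ Tconv libraries and are not independent.

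Library 1 was higher than library 2 for 10 of 10 members in PD1+ Tconv (median ratio 2.55), for 10 of 10 in NK1.1+ ILTCk (3.47) and for 8 of 10 in NK1.1- ILTCk (1.74). Over all 18091 genes tested, 50.2% to 50.7% were higher in library 1. The CD3 sum was higher in library 1 as well, 5.36-fold in NK1.1+ ILTCk, 1.57-fold in PD1+ Tconv and 1.39-fold in NK1.1- ILTCk. The part of T cell content in these differences between libraries was not tested. In the thymic groups library 1 was higher for 4 of 10 members in CD8SP and 3 of 10 in ILTCkP.

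For NK1.1+ ILTCk against PD1+ Tconv, the fitted log2 fold change was below 0 for 10 of 10 members, against 51.5% of all genes, with a median of -2.61 against -0.04. Pdcd1, whose direction the gate fixed, is among them. The libraries did not overlap for 7 members, all lower in NK1.1+ ILTCk, against 20.8% of all genes lower without overlap. EdgeR called 0 of the 10 members in either direction and 0% of all genes, both higher and lower. With a block on the library number it called 7 members, and over all genes 432 higher and 323 lower. No label ties those numbers to a mouse or day. At an unadjusted p under 0.05 the fit without the block gave 4 members lower (7.34% of all genes). DESeq2 called the same 4, Pdcd1, Ctla4, Btla and Tox (3.55% of its genes). Limma-voom called Pdcd1 alone. With Pdcd1 left aside, 9 of 9 members were below 0 with a median of -2.44, 6 did not overlap, and 3 were called by DESeq2.

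Ctla4 was at 109 and 66.8 CPM in PD1+ Tconv and 7.86 and 2.98 CPM in NK1.1+ ILTCk. The log2 difference was -4.02 ± 0.65 (edgeR adjusted p = 0.0875). Set side by side by library number, which is no known pairing, PD1+ Tconv was higher 13.8-fold and 22.5-fold. Both NK1.1+ ILTCk libraries lay far below both PD1+ Tconv libraries.

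Tox was at 296 and 167 CPM in PD1+ Tconv and 43.9 and 6.40 CPM in NK1.1+ ILTCk (-3.20 ± 1.00, edgeR adjusted p = 0.245). Tox2 was at 30.5 and 5.51 CPM against 4.15 and 1.08 CPM (-2.79 ± 1.21, adjusted p = 0.359). The groups did not overlap for either factor, although library 1 was the higher of the 2 in both groups. Tigit was at 168 and 90.4 CPM against 52.2 and 8.57 CPM (-2.09 ± 0.91, adjusted p = 0.360), and Lag3 at 33.6 and 5.51 CPM against 4.60 and 0.63 CPM (-2.91 ± 1.27, adjusted p = 0.362). Btla was at 22.8 and 7.21 CPM against 4.20 and 1.35 CPM (-2.44 ± 0.80, adjusted p = 0.259). These 3 receptors also showed no overlap between the groups.

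For the other 3 members the groups overlapped. Cd160 was at 199 and 69.2 CPM in PD1+ Tconv and 166 and 29.3 CPM in NK1.1+ ILTCk (-0.46 ± 0.87, adjusted p = 0.858). Havcr2 was at 44.6 and 19.2 CPM against 32.0 and 10.5 CPM (-0.59 ± 0.64, adjusted p = 0.744). Entpd1 was at 159 and 56.9 CPM against 121 and 58.9 CPM (-0.26 ± 0.58, adjusted p = 0.886), so that its library 2 values were nearly the same in both groups. Both Entpd1 and Havcr2 are also known from macrophages and dendritic cells, and the 12 macrophage markers summed to 6512 and 18624 CPM in NK1.1+ ILTCk against 157 and 1041 CPM in PD1+ Tconv. The 8 dendritic cell markers summed to 330 and 83.6 CPM in NK1.1+ ILTCk and 147 and 43.6 CPM in PD1+ Tconv. The groups thus overlapped, and 2 of the 8 were higher and 1 lower at an unadjusted p under 0.05. Of these sums, Ccr7 made up 5.54 and 2.93 CPM in NK1.1+ ILTCk and 85.2 and 23.1 CPM in PD1+ Tconv. Ccr7 was also at 1468 and 1210 CPM in CD8SP, so the sum is not of dendritic cell transcripts alone. Flt3 was at 0 in NK1.1+ ILTCk library 2 and Cd209a in PD1+ Tconv library 2. The part of these cells in the levels of Entpd1 and Havcr2 was not tested. The log2 difference of all 3 members passed to the higher side without NK1.1+ ILTCk library 2 (Cd160 0.31, Entpd1 0.17, Havcr2 0.0059) and without PD1+ Tconv library 1 (Cd160 0.51, Entpd1 0.68, Havcr2 0.17).

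**Figure D4:**
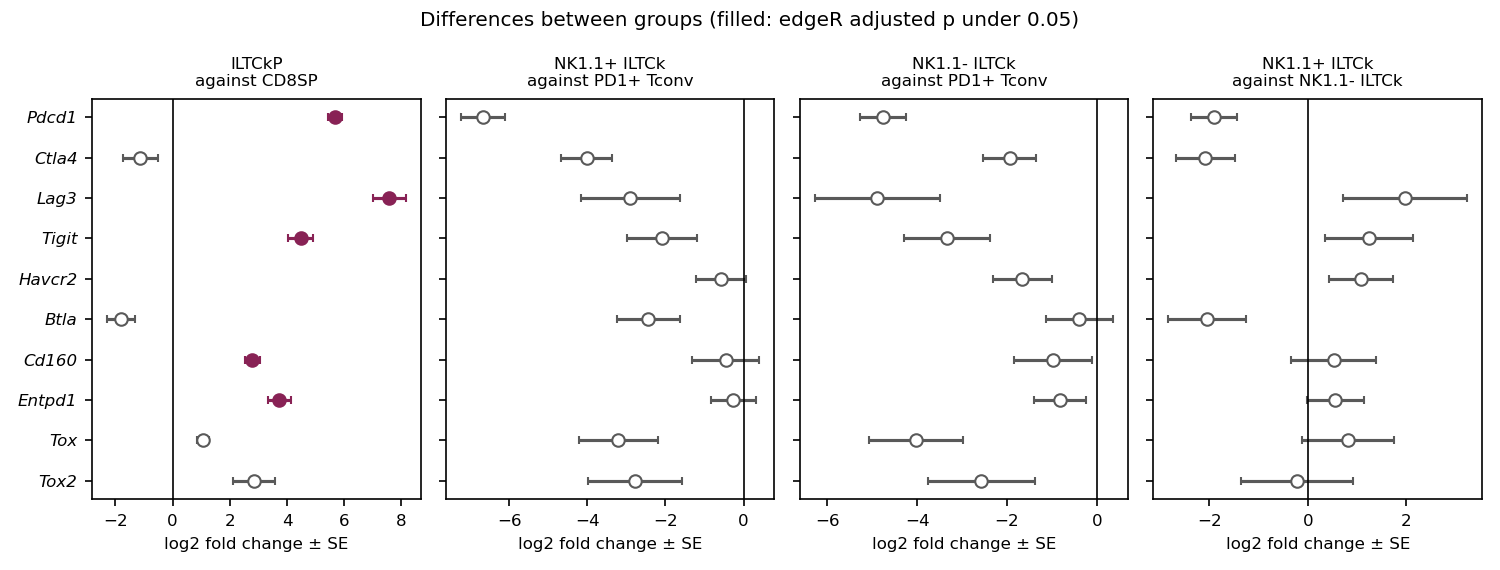
Log2 fold change ± SE (x axis) of each member (y axis) in the 4 comparisons, from edgeR, filled where the adjusted p is under 0.05; Havcr2 was not tested in the thymus. Filled points occur in the thymus alone (5 members), and all 10 points lie below 0 in both comparisons with PD1+ Tconv, where no member was called.

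For NK1.1- ILTCk against PD1+ Tconv, 10 of 10 members again had a log2 fold change below 0, against 52.2% of all genes, with a median of -2.25 against -0.04. For 7 members the libraries did not overlap, all lower in NK1.1- ILTCk, against 22.7% of all genes. EdgeR called 0 of 10 in either direction (0% of all genes higher and 0% lower), with 6 lower at an unadjusted p under 0.05 (5.91% of all genes). With the block it called 4 members, and over all genes 165 higher and 133 lower. DESeq2 called 4 lower, Pdcd1, Lag3, Tigit and Tox (2.12% of its genes), and limma-voom called 0. With Pdcd1 left aside, 9 of 9 members were below 0 with a median of -1.93, 6 did not overlap, 5 had an unadjusted p under 0.05 and 3 were called by DESeq2.

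Lag3 was at 1.06 and 0.23 CPM in NK1.1- ILTCk, from 36 and 5 counts, against 33.6 and 5.51 CPM in PD1+ Tconv (-4.89 ± 1.40, edgeR adjusted p = 0.361). Tigit was at 19.3 and 6.24 CPM (-3.34 ± 0.95, adjusted p = 0.361) and Tox at 22.2 and 6.20 CPM (-4.02 ± 1.04, adjusted p = 0.354). Each of the 3 lay below both PD1+ Tconv libraries. Ctla4 was at 16.3 and 29.6 CPM (-1.93 ± 0.59, adjusted p = 0.361). By library number, again no known pairing, Ctla4 was lower than in PD1+ Tconv by 6.66-fold and 2.26-fold.

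Havcr2 was nearly equal in the 2 NK1.1- ILTCk libraries, at 10.7 and 9.52 CPM, and below both PD1+ Tconv libraries (-1.66 ± 0.66, adjusted p = 0.403). Tox2 was at 5.22 and 0.82 CPM (-2.57 ± 1.19, adjusted p = 0.444). Btla, at 12.9 and 10.0 CPM, Cd160, at 93.2 and 42.4 CPM, and Entpd1, at 66.9 and 55.2 CPM, overlapped with PD1+ Tconv. Their log2 differences were -0.39 ± 0.75, -0.98 ± 0.87 and -0.82 ± 0.58, with adjusted p-values of 0.875, 0.679 and 0.607. Without PD1+ Tconv library 1, Btla was at 0.69 and Entpd1 at 0.12.

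Scaling the tumour libraries to their CD3 counts instead of TMM raised the median log2 fold change of all genes from -0.04 to 1.64 for NK1.1+ ILTCk and from -0.04 to 1.48 for NK1.1- ILTCk, both against PD1+ Tconv. In absolute terms Havcr2 (0.64), Cd160 (0.47) and Entpd1 (1.22) then turned to the higher side in NK1.1+ ILTCk, as did Btla (1.27), Cd160 (0.60) and Entpd1 (0.83) in NK1.1- ILTCk, none of them called. Relative to the median of all genes, 10 of 10 members were lower in each comparison, Entpd1 by 0.42 and 0.65. Taking off that median largely undoes the change of scaling, so this count is not a separate check of CD3 content. Pdcd1 in NK1.1+ ILTCk was the 1 member called under this scaling (-5.11 ± 1.48, edgeR adjusted p = 0.0305). Tox stayed on the lower side in both comparisons (-2.44 ± 1.25 and -2.56 ± 1.25, adjusted p = 0.287 and 0.398).

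**Figure D5:**
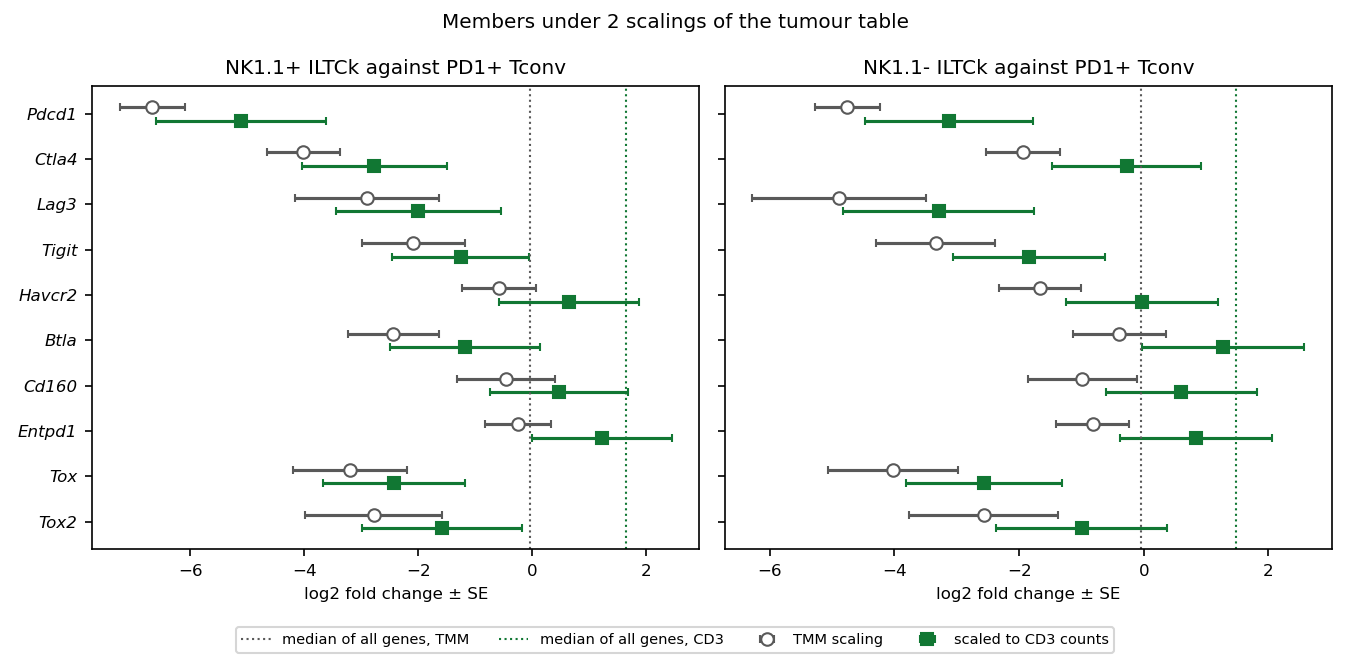
Log2 fold change ± SE (x axis) of each member (y axis) against PD1+ Tconv under TMM scaling (open circles) and scaling to CD3 counts (filled squares), with the median of all genes under each scaling as a dotted line. Under CD3 scaling the median of all genes moves to 1.64 and 1.48, and Entpd1 lies at 1.22 and 0.83.

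Per 1000 CD3 counts, Tox was at 120 and 107 in PD1+ Tconv. The NK1.1+ ILTCk libraries had 23.5 and 18.4, and those of NK1.1- ILTCk had 27.8 and 10.8. The 2 PD1+ Tconv libraries, which differed 1.77-fold in CPM, were close on this scale and above all 4 ILTCk libraries. Ctla4 was at 44.2 and 42.6 per 1000 CD3 counts in PD1+ Tconv. It was at 20.4 and 51.4 in NK1.1- ILTCk and at 4.22 and 8.55 in the NK1.1+ cells, so that on this scale PD1+ Tconv and NK1.1- ILTCk overlapped. Entpd1 was at 64.5 and 36.3 in PD1+ Tconv. The NK1.1+ ILTCk libraries had 65.1 and 169, and those of NK1.1- ILTCk had 83.7 and 95.9. PD1+ Tconv, which had the highest mean of Entpd1 in CPM, thus had the lowest of the tumour groups relative to CD3. Under CD3 scaling the median of all genes rose too, to 1.64 for NK1.1+ ILTCk and 1.48 for NK1.1- ILTCk against PD1+ Tconv. Entpd1 lay at -0.42 and -0.65 from those medians. NK1.1+ ILTCk library 2, with 169, had the lowest CD3 sum (348 CPM) and the highest macrophage marker sum (18624 CPM). The part of these contents was not tested.

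Between the 2 tumour ILTCk groups, 3 members were lower in NK1.1+ ILTCk without overlap of libraries, Pdcd1, Ctla4 and Btla, against 18.9% of all genes. Without Pdcd1 they were 2 of 9. EdgeR called 0 of 10 in either direction (0% of all genes higher and 0% lower). The same 3 had an unadjusted p under 0.05 (1.75% of all genes), and DESeq2 called Pdcd1 (adjusted p = 0.0446; 0.137% of its genes). Ctla4 was at 16.3 and 29.6 CPM in NK1.1- ILTCk against 7.86 and 2.98 CPM in NK1.1+ ILTCk (-2.08 ± 0.60, edgeR adjusted p = 1.00). Btla was at 12.9 and 10.0 CPM against 4.20 and 1.35 CPM (-2.05 ± 0.79, adjusted p = 1.00). The log2 difference of the other 7 members lay between -0.22 for Tox2 and 1.98 for Lag3, and their libraries overlapped. Without NK1.1+ ILTCk library 1, Lag3 (-0.065), Tigit (-0.58), Cd160 (-1.22), Entpd1 (-0.054) and Tox (-1.16) passed to the lower side, and Tox2 passed to the higher side without NK1.1- ILTCk library 1 (1.67) and without NK1.1+ ILTCk library 2 (0.45). CD3 scaling moved the median of all genes to 0.16 here, and 6 of 10 members lay below it.

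Per length, the order in PD1+ Tconv began with Pdcd1 (390 and 268 CPM per kb) and Tigit (183 and 98.3), which overlapped neither each other nor the next gene. Cd160 (75.3 and 26.2), Ctla4 (46.7 and 28.7), Tox (38.9 and 22.0) and Entpd1 (28.4 and 10.2) followed, each overlapping the next. In NK1.1+ ILTCk the order began with Cd160 (62.7 and 11.1), Tigit (56.8 and 9.32) and Entpd1 (21.7 and 10.6), and all neighbours in it overlapped. In NK1.1- ILTCk it began with Cd160 (35.3 and 16.1) and Tigit (21.03 and 6.79), and Lag3 was last (0.50 and 0.11). Neighbours in that order overlapped, except Ctla4 above Havcr2 and Btla above Tox.

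In the 7 related lists the main edgeR fit called no gene in any tumour comparison. For NK1.1+ ILTCk against PD1+ Tconv, the 18 exhaustion-linked transcription factors had a median of -0.84, with 6 lower and 0 higher at an unadjusted p under 0.05 (7.34% and 6.98% of all genes) and 4 called lower by DESeq2 (3.55%). Eomes was at 134 and 78.7 CPM in PD1+ Tconv and 3.35 and 1.40 CPM in NK1.1+ ILTCk (-5.48 ± 0.61, edgeR adjusted p = 0.0725). Nr4a2 was at 412 and 194 CPM against 31.6 and 35.7 CPM (-3.17 ± 0.48, adjusted p = 0.0875), and Nr4a3 at 74.8 and 97.3 CPM against 10.3 and 8.61 CPM (-3.19 ± 0.39, adjusted p = 0.0779). All 3 were apart from PD1+ Tconv without overlap, and the same was seen in NK1.1- ILTCk, where Eomes was at 6.87 and 7.06 CPM, Nr4a2 at 30.8 and 34.9 CPM and Nr4a3 at 10.7 and 12.03 CPM.

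Of the 5 receptors that share ligands with the members, Cd28 was at 228 and 198 CPM in PD1+ Tconv, 45.7 and 63.1 CPM in NK1.1- ILTCk and 6.34 and 15.9 CPM in the NK1.1+ cells. Icos, a costimulatory relative of Cd28, was at 94.9 and 119 CPM, 35.6 and 70.9 CPM, and 7.63 and 7.44 CPM in the same order. For NK1.1+ ILTCk against PD1+ Tconv the log2 differences were -4.26 ± 0.56 and -3.83 ± 0.48 (edgeR adjusted p = 0.0779 for both). The costimulatory receptors were thus lowest in NK1.1+ ILTCk, together with Ctla4, without being called. Among the adaptors, Sh2d1a (SAP) was at 102 and 81.2 CPM in PD1+ Tconv and 4.91 and 3.43 CPM in NK1.1+ ILTCk (-4.46 ± 0.46, adjusted p = 0.0725).

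Other inhibitory receptors ran both ways. Lair1 was at 163 and 110 CPM in NK1.1+ ILTCk against 19.9 and 16.5 CPM in PD1+ Tconv (2.91 ± 0.40, edgeR adjusted p = 0.0779), and Cd5 at 6.47 and 1.67 CPM against 92.1 and 46.4 CPM (-4.09 ± 0.74, adjusted p = 0.106). Lair1 is known from macrophages as well, whose markers differed in the same direction, and their part was not tested. In the adenosine pathway 1 of 7 genes was higher and 1 lower at edgeR's unadjusted p under 0.05 (6.98% and 7.34% of all genes). P2rx7 was at 50.5 and 70.5 CPM in NK1.1+ ILTCk against 25.7 and 19.4 CPM in PD1+ Tconv (1.42 ± 0.41, adjusted p = 0.218). The part of macrophages in the level of P2rx7 was not tested either. Of the 13 ligand genes, which leave out MHC class II, none had an unadjusted p under 0.05 in that comparison, and 0 were called by DESeq2. MHC class II, which LAG-3 binds, was read from a marker list of 5 genes. These summed to 14568 and 9276 CPM in NK1.1+ ILTCk against 391 and 1027 CPM in PD1+ Tconv. All 5 were higher at edgeR's unadjusted p under 0.05 (6.98% of all genes). The part of other cells in this was not tested.

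Genes with the most similar pattern to each member were sought among 9400 genes, by Pearson's correlation of log2(CPM + 1) over the 10 libraries. These points share library depth, and a difference between the thymic and tumour tables raises the coefficient. Lag3 was closest to Tigit (0.942), the only pair of members in which one was the closest gene of the other. Pdcd1 was closest to Syt11 (0.953), Tigit to Pgm2l1 (0.942), Ctla4 to Rbm26 (0.984) and Btla to Snapc3 (0.972). Havcr2 was followed by Sema6d (0.994), Slamf7 (0.992) and the granzyme gene Gzma (0.989), and Cd160 by Slc25a53 (0.976), the interleukin receptor gene Il2rb (0.961) and Ikzf2 (0.942). Entpd1 was closest to Unc119 (0.974), Tox to Zfp831 (0.984) and Tox2 to Chsy1 (0.932).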

How the data were processed

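The authors deposited whole-number counts for 50508 gene symbols in 2 tables, of 4 thymic and of 6 tumour libraries. Per the submitters' processing notes, the authors used the mm10 build and DESeq, whose version is not stated. Which aligner, counter and annotation were used is not given in the sources used here. The 4 single-cell libraries of the series were not analysed here.

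Each table was fitted on its own. Genes were kept with filterByExpr (14634 and 18091), libraries scaled with TMM, and edgeR 4.0.16 (glmQLFit with robust estimation, glmQLFTest, R 4.3.3) gave log2 fold changes ± SE and Benjamini-Hochberg adjusted p-values over all genes tested. The 3 tumour comparisons share the spread of the 6 libraries. A call is an adjusted p under 0.05. The scripts were tested on simulated counts. Alternatives were DESeq2 1.42.0, limma-voom (limma 3.58.1), RLE, upper-quartile and CD3 scaling, other filters, a replicate block, the 4 compared libraries alone and each library left out.

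The members and lists were chosen with earlier results of these data known. Named were the 10 members, the called genes of each related list, or the 3 with the smallest p where more or none were called, and for each member the most similar genes among those with a mean of at least 10 CPM. For the tumour comparisons the text gives a part of those. Gene positions and lengths came from GENCODE release M21 (GRCm38). Total counts of 16530085 to 32097301 per library set the precision.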

Additional observations from a re-analysis of the deposited data

How the results depend on the processing

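In the thymus none of the 108 alternative values of single members changed direction. No called member was lost in the fits that kept all libraries. The number called went from 5 to 8 with DESeq2, without a filter and with the replicate block. For NK1.1+ ILTCk against PD1+ Tconv it went from 0 to 4 with DESeq2, 1 with limma-voom, 1 with CD3 scaling, 7 without a filter and 7 with the replicate block. For NK1.1- ILTCk against PD1+ Tconv it went from 0 to 4 with DESeq2, 6 without a filter and 4 with the replicate block. Between the tumour ILTCk groups it went from 0 to 1 with DESeq2 (Pdcd1) and 1 without a filter (Ctla4), and was 0 with the block. Calls from fits with 1 library left out are not read, since they leave 1 library in a group. Over all genes, edgeR without a filter called 1600 higher and 935 lower in the thymus, against 495 and 194 in the main fit. In the tumour table it called 682 and 567 for NK1.1+ ILTCk against PD1+ Tconv and 438 and 361 for NK1.1- ILTCk against PD1+ Tconv. Between the ILTCk groups it called 127 and 40. The causes were not tested.

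The replicate numbers are not tied to a mouse or day by the labels. Differences between libraries 1 and 2 correlated between groups with coefficients of 0.279 in the thymus and 0.394 to 0.473 in the tumour table, over genes, and 2 numbers a group do not settle a pairing. With the replicate block edgeR called 1267 genes higher and 945 lower in the thymus, 432 and 323 for NK1.1+ ILTCk against PD1+ Tconv, 165 and 133 for NK1.1- ILTCk against PD1+ Tconv, and 0 and 0 between the ILTCk groups.

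Some values that were not called changed sign. For NK1.1+ ILTCk against PD1+ Tconv, CD3 scaling gave 0.64 for Havcr2, 0.47 for Cd160 and 1.22 for Entpd1. Leaving out 1 library gave -1.59 to 0.17 for Havcr2, -2.19 to 0.51 for Cd160 and -0.87 to 0.68 for Entpd1, positive without NK1.1+ ILTCk library 2 and without PD1+ Tconv library 1. For NK1.1- ILTCk against PD1+ Tconv, CD3 scaling gave 1.27 for Btla, 0.60 for Cd160 and 0.83 for Entpd1. Leaving out 1 library gave -0.999 to 0.69 for Btla and -1.39 to 0.12 for Entpd1, positive without PD1+ Tconv library 1. Between the ILTCk groups, CD3 scaling gave -0.14 for Cd160 and the replicate block 0.0096 for Tox2. There, leaving out 1 library gave -0.065 to 3.49 for Lag3, -0.58 to 2.28 for Tigit, -1.22 to 1.29 for Cd160, -0.054 to 0.99 for Entpd1 and -1.16 to 2.02 for Tox, each negative without NK1.1+ ILTCk library 1. Tox2 lay between -1.49 and 1.67, positive without NK1.1- ILTCk library 1 and without NK1.1+ ILTCk library 2. With CD3 scaling edgeR called 808 genes higher and 134 lower in the thymus, against 495 and 194 with TMM, and 418 higher and 23 lower for NK1.1+ ILTCk against PD1+ Tconv, against 0 and 0. Where a library was left out, the lone library of its group was assumed to vary like the others.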
